A study of Mus musculus with 6 samples.

Results

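The genes of the cytosolic ribosomal proteins were examined by RNA-seq in cardiomyocytes (CMs) of mice with and without *Cpt1b*, the muscle isoform of the carnitine palmitoyltransferase that lets long-chain fatty acids enter mitochondria for oxidation. Members were the protein-coding genes of the deposited table whose symbol begins with Rpl or Rps, without the S6 kinases (symbols beginning with Rps6k), which gave 82 of 16448 genes. Of these, 42 encode proteins of the large subunit, 31 of the small subunit and 3 of the P-stalk. Another 5 are paralogs or relatives of standard ribosomal proteins (*Rpl3l*, *Rpl7l1*, *Rpl22l1*, *Rps27l* and *Rps27rt*). *Rps19bp1* has the prefix but encodes a binding partner of a ribosomal protein. The groups were 3 samples of CMs from αMHC-Cre pos/+; *Cpt1b* +/+ mice (CtrlCre) and 3 from αMHC-Cre pos/+; *Cpt1b* fl/fl mice (Cpt1bcKO), C57BL/6, aged 8 to 12 weeks. Controls thus carry the Cre transgene too, which is driven by the promoter of *Myh6* and removes *Cpt1b* from CMs only, starting before birth. CMs were isolated from ventricles by enzymatic perfusion and slow centrifugation, a procedure that can leave other heart cells in the preparation. Nothing in the labels ties the samples of a group to separate mice, so P values measure the spread between these samples.

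Cytosolic ribosomes are built in the nucleolus from ribosomal RNA and a set of ribosomal proteins that, with few exceptions, is the same in every cell. The mRNAs of these proteins usually begin with a C followed by a run of pyrimidines, the terminal oligopyrimidine (TOP) tract, through which LARP1 and the kinase mTOR set their translation. The heart and skeletal muscle are an exception to the uniform set, because mature striated muscle makes RPL3L, a paralog of RPL3, a protein that lies close to the catalytic centre of the large subunit. Most ribosomal protein genes also have processed pseudogenes, copies of its mRNA in the genome, and a good number carry small nucleolar RNA (snoRNA) genes in their introns.

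Sequences of 2 kinds are shown, the first for telling apart the reads of *Rpl3* and *Rpl3l* and the second as description only. *Rpl3* and *Rpl3l* were the members with the largest changes in either direction, and their coding sequences, of 1209 and 1221 bases, were identical at 74.4% of 1205 aligned bases. Their most alike stretch of 75 bases, the length of a sequencing read, lies in exon 2 of both genes and covers coding bases 85 to 159. It is given 5′ to 3′ from the GENCODE vM21 transcripts (GRCm38), *Rpl3* at chr15:80082427-80082501 on the minus strand and *Rpl3l* at chr17:24728398-24728472 on the plus strand. Capitals mark the 14 bases that differ.
Rpl3: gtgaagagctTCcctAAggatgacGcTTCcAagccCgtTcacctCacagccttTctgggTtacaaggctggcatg
Rpl3l: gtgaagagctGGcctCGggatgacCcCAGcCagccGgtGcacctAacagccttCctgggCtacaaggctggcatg
With 14 differences even in this stretch, and with 0 windows of 75 bases in common over the whole transcripts, reads of *Rpl3* and *Rpl3l* can be told apart.

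The second kind is the start site, where the TOP tract lies. Windows of 30 bases, 15 before the annotated start and 15 from it on, were read from RefSeq (GRCm38.p6) for the 62 of 82 members in that table. Capitals mark every stretch of a C followed by at least 4 pyrimidines. Shown are *Rps6*, *Rpl15*, *Rpl38* and *Rps18* as members with such a tract at the start, beside *Rps2* and *Rpl3l*, the members with the lowest fold changes.
Rps6 (chr4:86857353-86857382, minus strand): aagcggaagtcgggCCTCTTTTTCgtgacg
Rpl15 (chr14:18270972-18271001, minus strand): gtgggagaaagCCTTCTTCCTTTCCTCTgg
Rpl38 (chr11:114668565-114668594, plus strand): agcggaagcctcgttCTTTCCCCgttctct
Rps18 (chr17:33955651-33955680, minus strand): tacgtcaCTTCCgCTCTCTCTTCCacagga
Rps2 (chr17:24720048-24720077, plus strand): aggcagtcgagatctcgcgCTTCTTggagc
Rpl3l (chr17:24727811-24727840, plus strand): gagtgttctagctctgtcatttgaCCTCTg
A C followed by 4 pyrimidines stood exactly at an annotated start in 14 of 62 members (22.6%), against 3.01% of the 27025 genes in the table. The letters CTTTC, read in the direction of the mRNA, occurred within 50 bases of a start in 32 members (51.6%), against 14.6% of all genes. CTTCC occurred in 29 members (46.8%), against 22.2% of all genes, and either motif in 46 (74.2%), against 32.5%. In *Rpl3l* the start bore no such tract, and the window of 50 bases on either side held CTTCC but not CTTTC. These are matches of letters around annotated starts, which need not be the starts used in CMs. Whether a tract or motif goes along with a fold change was not tested.

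The deposited values are read counts that the authors divided by a size factor for each sample and rounded, called normalised counts here. Their sums without mitochondrial-encoded and rRNA genes lay between 3146410 and 3551690 per sample. Over all genes the sums ran from 13393400 to 31722200, the latter in Cpt1bcKO sample 3. The targeted gene *Cpt1b* had 1861, 893 and 1443 normalised counts in CtrlCre and 211, 353 and 285 in Cpt1bcKO samples. CM markers were abundant in every sample. The sum of 12 of them ranged from 667181 to 758977 in CtrlCre and from 453460 to 669824 in Cpt1bcKO samples. Summed fibroblast markers (8 genes) ranged from 498 to 785 and from 1108 to 1338, endothelial markers (8 genes) from 1241 to 2620 and from 2308 to 2639, and macrophage markers (7 genes) from 87 to 159 and from 129 to 144. Smooth muscle and pericyte markers (7 genes) ranged from 1068 to 2227 and from 1140 to 1704. The erythroid markers in the table were at or near 0, with sums of 3 to 20 and 1 to 18, and Schwann and epicardial markers summed to 35 to 66 and 22 to 59.

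Members differed widely in level. The mean over all samples was at least 1000 normalised counts in 5 members, from 100 to under 1000 in 47 and under 100 in 30. Per kb of exon, the highest level in CtrlCre CMs was that of *Rplp1* (3114), a P-stalk protein, followed by *Rps2* (749), *Rpl26* (717), *Rplp0* (671) and *Rpl4* (631). *Rpl3l* (595) was also near the top. At the low end, *Rpl23a* had 3.54 per kb. Reads that fit several genes or regions had been excluded, so that only part of some transcripts could be counted. In 78 of 82 members, some windows of 75 transcript bases also occurred in another gene, mostly a pseudogene. The share of windows found in no other gene had a median of 59.2% and ranged from 1.48% in *Rps27* to 100% in members such as *Rpl3l*. It was under 10% in 3 members (*Rpl9*, *Rps27* and *Rps27rt*, named after their values were seen) and over 90% in 13. Across the 82 members this share and the mean level per kb had a Spearman's rho of −0.0057, a description across genes of the same libraries. For the log2FC described below, rho with this share was −0.00032 over 79 members.

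**Figure D1:**
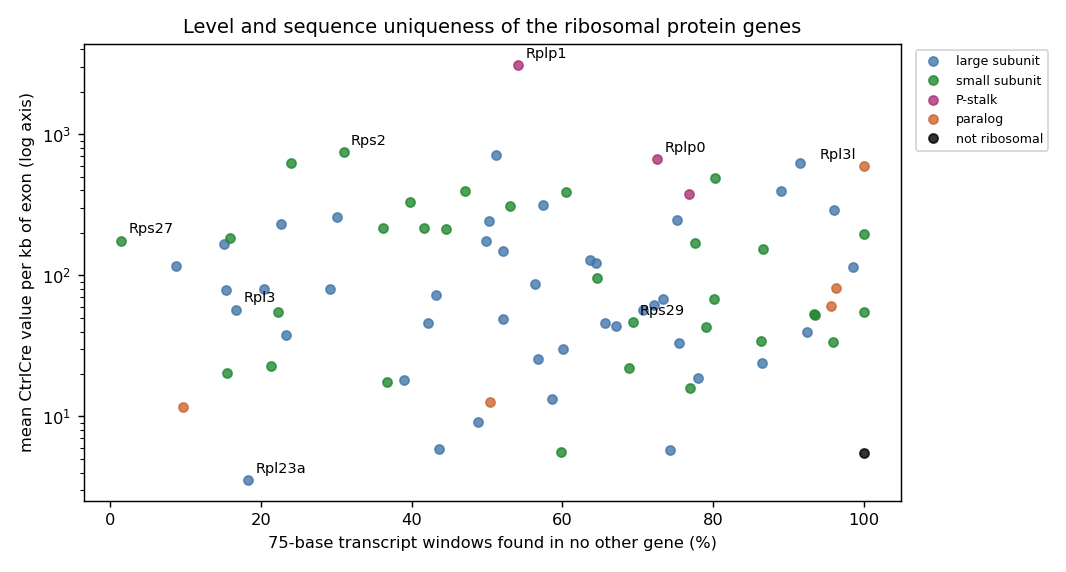
Level of the 82 ribosomal protein genes in CtrlCre CMs (mean normalised counts per kb of exon, log axis, n = 3) against the percentage of 75-base transcript windows found in no other gene, coloured by subgroup. Levels spread over the whole range of uniqueness, and *Rpl3l* (100%) is countable over its whole transcript, whereas *Rpl3* (16.8%) and *Rps27* (1.48%) are not.

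The comparison asked whether loss of *Cpt1b* in CMs goes along with other levels of ribosomal protein mRNAs. The summed level of the group differed between CtrlCre and Cpt1bcKO CMs by less than its spread, whereas the muscle paralog *Rpl3l* fell. The summed members made up 0.856%, 0.553% and 0.640% of the summed values outside rRNA and mitochondrial-encoded genes in CtrlCre samples 1 to 3. In Cpt1bcKO samples 1 to 3 they made up 0.777%, 0.584% and 0.609%. The means were 0.683% ± 0.156 and 0.657% ± 0.105 (SD, n = 3 each), a difference of −0.026 percentage points that was smaller than either SD. The filter (10 or more normalised counts in 3 samples or more) was passed by 79 members, and not by *Rps27rt*, *Rps19bp1* and *Rpl23a*. Of the 79, 24 had higher and 55 lower means on the log2(value + 1) scale in Cpt1bcKO CMs, and the median log2 fold change (log2FC) was −0.097, against −0.0013 over all 11364 genes tested. Scaled to totals without mitochondrial-encoded and rRNA genes, which moved the median of all genes to 0.11, 78 members passed the filter, of which 39 were higher and 39 lower, and the median of the members was 0.0015. Relative to all genes, the medians were thus −0.096 and −0.11 under these scalings, and without CtrlCre sample 1 the median of the members was 0.033, with 43 higher and 36 lower.

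In limma with Benjamini–Hochberg adjustment over all genes tested, 1 member (*Rpl3l*, lower) had an adjusted P value below 0.05, against 1.57% of all genes tested. Without adjustment, 5 members reached P values below 0.05, which compares with 13.9% of all genes. Of the 5, 3 were lower (*Rpl3l*, *Rps2* and *Rpl7l1*, against 7.22% of all genes) and 2 higher (*Rpl3* and *Rps29*, against 6.66%). Single samples moved the count of 5, to 8 without CtrlCre sample 2 (against 12.2% of all genes in the same fit), 2 without CtrlCre sample 3 (11.3%), 18 without Cpt1bcKO sample 1 (19.9%) and 3 without Cpt1bcKO sample 2 (8.86%). The adjusted count moved to 2 without Cpt1bcKO sample 1 (against 2.90% of all genes) and to 0 without Cpt1bcKO sample 2 (0.370%). The groups did not overlap in 7 members, against 18.7% of all genes. Of these, 3 were lower in all Cpt1bcKO samples (*Rpl3l*, *Rpl8* and *Rps10*, against 9.6% of all genes). Another 4 were higher in all of them, among them *Rpl3*, *Rpl15* and *Rps29*, against 9.13% of all genes. *Rpl8*, *Rps10* and *Rps29* are named because of these values. The log2FC was under 0.5 in size in 74 of 79 members, with standard errors of 0.17 to 0.64 (median 0.24). Among the subgroups, 13 of 41 tested large subunit genes were higher and 28 lower (median log2FC −0.16). In the small subunit, 10 of 31 were higher and 21 lower (median −0.089). All 4 tested paralogs were lower under the scaling reported (median −0.33), and 1 of them passed the adjusted test. *Rps27l* turned to 0.089 when scaled to totals without mitochondrial-encoded and rRNA genes, and *Rpl22l1* to 0.011 without CtrlCre sample 2.

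**Figure D2:**
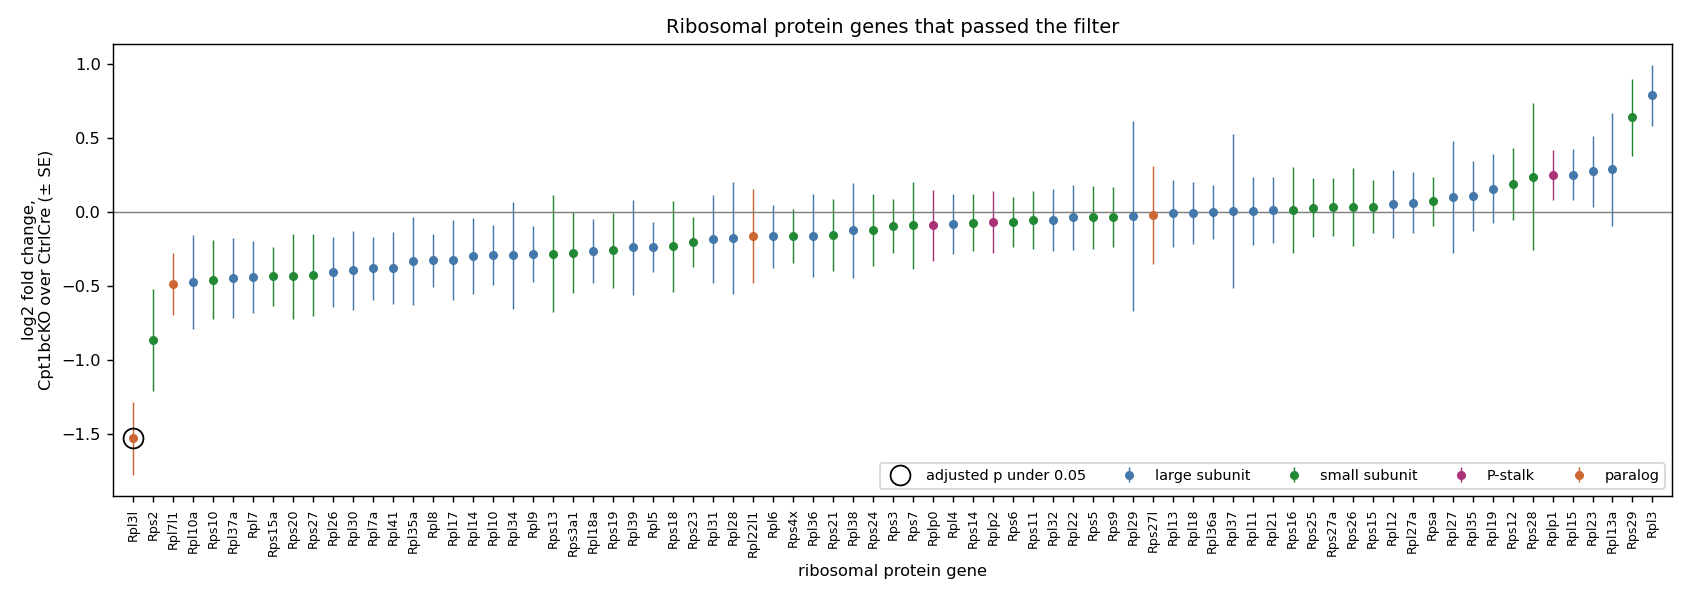
Log2 fold change (Cpt1bcKO over CtrlCre, log2(value + 1) scale, bars are standard errors from limma, n = 3 samples per group) of 77 of the 79 ribosomal protein genes that passed the filter (the other two are not reported here), in rising order and coloured by subgroup. *Rpl3l*, ringed, lies at −1.53 and is the single gene drawn with an adjusted P value below 0.05, *Rpl3* lies at the other end at 0.79, and 73 of the genes drawn lie within 0.5 of no change.

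*Rpl3l* (ENSMUSG00000002500, plus strand of chromosome 17 from 24727820 to 24736143, GRCm38), the muscle paralog of *Rpl3*, fell in Cpt1bcKO CMs. It had 1404, 760 and 771 normalised counts in CtrlCre and 403, 261 and 321 in Cpt1bcKO samples. All Cpt1bcKO samples were below all CtrlCre samples, although CtrlCre sample 1 stood well above the other two. The log2FC was −1.53 (SE 0.249), a 2.89-fold lower level, with a limma-adjusted P of 0.0143. Without Cpt1bcKO sample 2 the adjusted P value was 0.0930, and with 1 prior variance for all genes it was 0.108. All 12 CM markers were lower as well, by log2FC values of −0.996 to −0.22. In limma, 0 of 12 were below an adjusted P value of 0.05 (1.57% of all genes were) and 3 below an unadjusted one (13.9% of all genes). The part of the CM content in the change of *Rpl3l* was not tested. In such bulk samples fewer CMs and less RNA per CM cannot be told apart.

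*Rpl3* (ENSMUSG00000060036, minus strand of chromosome 15 from 80077796 to 80083353, GRCm38), which encodes the form used in other tissues, had the highest log2FC of all tested members. It had 233, 132 and 180 normalised counts in CtrlCre and 332, 303 and 286 in Cpt1bcKO samples. The groups did not overlap. The log2FC of 0.79 (SE 0.209) had an unadjusted limma P value of 0.00343 and 0.11 when adjusted, so it did not pass the adjusted test. In fits that left out a sample it lay between 0.58 and 0.99. With a block for the replicate number, *Rpl3* had a limma-adjusted P value of 0.0198, but the numbers were not taken as pairs, as described below. Fibroblast markers were higher beside *Rpl3*, 7 of 7 tested, and all 7 had unadjusted P values below 0.05 in limma (13.9% of all genes did). Of these markers, *Col1a1* and *Lum* had adjusted P values below 0.05 (1.57% of all genes did), and the part of fibroblasts in the values of *Rpl3* was not tested. Endothelial markers were higher as well, 8 of 8 tested (median log2FC 0.34). In limma, 0 of them were below an adjusted P value of 0.05 (1.57% of all genes) and 1 below an unadjusted one (13.9% of all genes). The sums of the endothelial markers given above overlapped between the groups, and the part of endothelial cells was not tested either. Among the fibroblast markers, the call of *Col1a1* was lost without CtrlCre sample 3 (adjusted P value 0.0519) or Cpt1bcKO sample 2 (0.0813). That of *Lum* was lost without CtrlCre sample 2 (0.0610), CtrlCre sample 3 (0.0622) or Cpt1bcKO sample 2 (0.0691). Of the 75-base windows of *Rpl3*, 16.8% were found in no other gene and the rest in 8 other genes, all pseudogenes. *Rpl3* also overlaps *Syngr1* on the opposite strand (mean 95.3 normalised counts), so its counts are less certain than those of *Rpl3l*. The named pseudogene *Rpl3-ps1* had at most 4 normalised counts in any sample.

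The ratio of both paralogs within a sample does not depend on the scaling between samples. *Rpl3l* had 6.03, 5.76 and 4.28 times the normalised counts of *Rpl3* in CtrlCre samples 1 to 3. In Cpt1bcKO samples 1 to 3 it had 1.21, 0.861 and 1.12 times those of *Rpl3*. All ratios of the mutant samples were thus below all ratios of the control samples, and in Cpt1bcKO sample 2 *Rpl3* had more normalised counts than *Rpl3l*. The log2 ratio was 2.41 ± 0.267 in CtrlCre and 0.077 ± 0.259 in Cpt1bcKO CMs (SD, n = 3 each), a 5.02-fold lower ratio. An exact two-sided permutation test gave P = 0.10, the smallest value that 3 samples against 3 allow. Per kb of exon, *Rpl3l* was 10.4-fold above *Rpl3* in CtrlCre and 2.07-fold above it in Cpt1bcKO CMs. Per kb of 75-base windows found in no other gene the order was the reverse, with means of 752 for *Rpl3l* and 849 for *Rpl3* in CtrlCre CMs. In Cpt1bcKO CMs these values were 252 for *Rpl3l* and 1435 for *Rpl3*. Which paralog had the higher level thus depends on the length taken as countable, whereas the change of the ratio between groups does not.

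**Figure D3:**
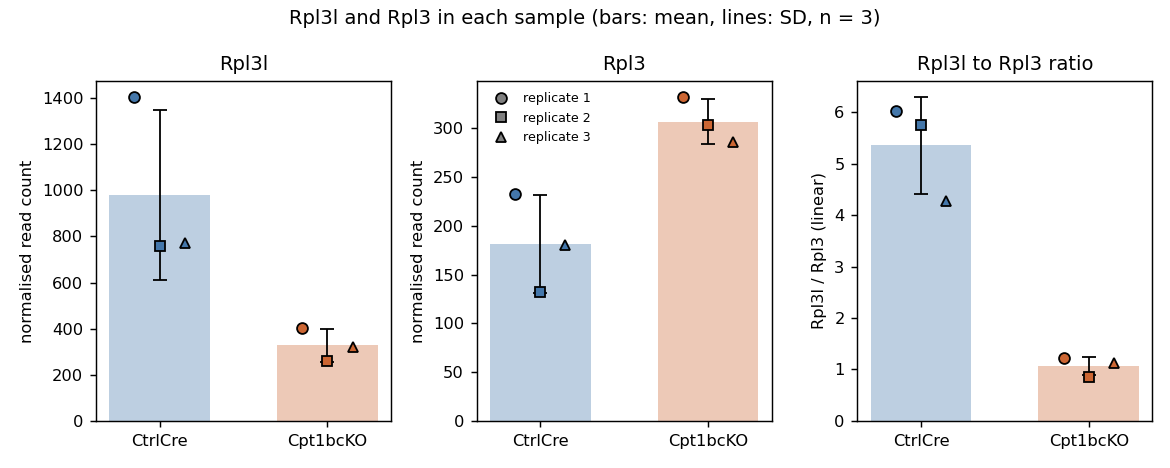
Normalised counts of *Rpl3l* and *Rpl3* and their linear ratio in each sample (symbols are replicates, bars group means, lines SD, n = 3). The ratio was 4.28 to 6.03 in the CtrlCre samples and 0.861 to 1.21 in the Cpt1bcKO samples, with no overlap in any of the 3 panels.

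In the other pairs of paralogs, no gene passed the adjusted test. *Rpl7l1*, a relative of *Rpl7* that serves in assembly of the large subunit, had 313, 239 and 304 normalised counts in CtrlCre and 273, 177 and 170 in Cpt1bcKO CMs. Its log2FC of −0.49 (SE 0.211) had a limma-adjusted P of 0.340, and *Rpl7* itself had a log2FC of −0.44 (limma-adjusted P = 0.456). *Rpl22* and its relative *Rpl22l1* had log2FC values of −0.037 and −0.16, with adjusted P values of 0.963 and 0.861 in limma. *Rpl22l1* had 20, 32 and 24 normalised counts in CtrlCre and 27, 19 and 21 in Cpt1bcKO CMs, a level too low to detect small changes. *Rps27* and *Rps27l* had log2FC values of −0.43 and −0.021 (adjusted P values 0.537 and 0.985 in limma). Both members of each of these pairs had values that overlapped between the groups. *Rpl10*, *Rpl36a* and *Rpl39*, whose genes lie on the X chromosome, had log2FC values of −0.29, 0.00078 and −0.24 (adjusted P values of at least 0.569 in limma).

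Among the standard proteins of the small subunit, *Rps2*, which lies where the mRNA enters the ribosome, had the lowest fold change. It had 2006, 904 and 1200 normalised counts in CtrlCre and 1191, 478 and 630 in Cpt1bcKO CMs. The groups overlapped, since Cpt1bcKO sample 1 was above CtrlCre sample 2, although each Cpt1bcKO sample was below the CtrlCre sample of the same number. The log2FC was −0.87 (SE 0.343, unadjusted P value 0.0295 and limma-adjusted P = 0.286). Without Cpt1bcKO sample 1, the highest of its group, it was −1.24 with an adjusted P value of 0.0381. This was the single call among 6 fits with a sample left out, and without CtrlCre sample 1 the log2FC was −0.55 (the highest adjusted P value of the 6 fits was 0.706). With a block for the replicate number, *Rps2* had a limma-adjusted P value of 0.00182, but the numbers were not taken as pairs, as described below. Of its 75-base windows, 31.0% occurred in no other gene, and the rest in 49 pseudogenes. *Rps29*, a small zinc-binding protein, had 35, 33 and 29 against 59, 39 and 57 normalised counts, a log2FC of 0.64 (SE 0.260, unadjusted P value 0.0326 and limma-adjusted P = 0.298). *Rps6*, the substrate of the S6 kinases downstream of mTOR, had 343, 258 and 278 against 245, 291 and 300 normalised counts. Its groups overlapped and its log2FC was −0.067 (SE 0.169). *Rpsa*, which also serves as a laminin receptor, was among the 3 members with the highest mean, with 1492, 1088 and 1103 against 1185, 1186 and 1480 normalised counts and a log2FC of 0.072 (SE 0.167).

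In the large subunit, no member had an adjusted P value below 0.05 in limma, against 1.57% of all genes tested. An unadjusted P value below 0.05 was found for 1 of 41 (*Rpl3*), against 13.9% of all genes. *Rpl10a* (log2FC −0.47) and *Rpl37a* (−0.45) were the lowest among members with a mean of at least 50, and *Rpl23* (0.28), *Rpl15* (0.25) and *Rpl19* (0.16) followed *Rpl3* at the upper end. Their adjusted P values in limma lay between 0.497 and 0.807. Leaving out single samples moved *Rpl10a* to between −0.82 and −0.26, *Rpl37a* to between −0.64 and −0.14 and *Rpl23* to between 0.11 and 0.49, with no call. *Rpl15* had 151, 140 and 130 normalised counts in CtrlCre and 153, 193 and 158 in Cpt1bcKO CMs, groups that were barely apart. *Rpl5* and *Rpl11*, which bind the smallest ribosomal RNA and, when free, the p53 regulator MDM2, had log2FC values of −0.24 and 0.0091 (adjusted P values 0.575 and 0.991 in limma). The sign for *Rpl11* changed with the scaling. *Rpl4*, a lining protein of the exit tunnel and among the 3 highest members by mean, had 1590, 1012 and 1199 against 1495, 1109 and 986 normalised counts.

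The P-stalk, which recruits the translational GTPases, consists of *Rplp0*, *Rplp1* and *Rplp2*. *Rplp1* had 1899, 1233 and 1529 normalised counts in CtrlCre and 1803, 1694 and 1976 in Cpt1bcKO CMs. The log2FC was 0.25 (SE 0.170, limma-adjusted P = 0.563), and the groups overlapped. *Rplp0*, which under its older name 36b4 serves as a reference gene for qPCR in the study, had 1572, 1051 and 717 against 1078, 975 and 937 normalised counts. Its control values spread more widely (1113 ± 431, SD, n = 3) than its mutant values (997 ± 73.0, SD, n = 3). The log2FC of −0.089 (SE 0.241, limma-adjusted P = 0.906) turned to 0.023 when samples were scaled to totals without mitochondrial-encoded and rRNA genes. Without CtrlCre sample 1 it was 0.20.

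Samples of the same group differed in the level of most members. The median deviation of the 79 tested members from the CtrlCre mean was 0.32, −0.25 and −0.057 on the log2 scale in CtrlCre samples 1 to 3. In Cpt1bcKO samples 1 to 3 it was 0.12, −0.22 and −0.18. Sample 1 of either group was thus the highest for most members. It was the highest of its group in both groups for 50 of 79 members (63.3%), compared with 21.6% of all genes tested. *Xist*, the X-inactivation RNA of female cells, had 957, 41 and 23 normalised counts in CtrlCre and 1080, 34 and 78 in Cpt1bcKO samples, so the samples numbered 1 stood apart here as well. Whether sex had a part in the levels of ribosomal protein mRNAs was not tested. Without sample 1 of both groups, an alternative chosen after seeing the data, 3 members had an adjusted P value below 0.05 in limma (2 lower and 1 higher), against 2.10% of all genes in that fit. Then *Rps2* and *Rpl3* were called (log2FC values −0.92 and 0.93, adjusted P values 0.0380 and 0.0453).

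**Figure D4:**
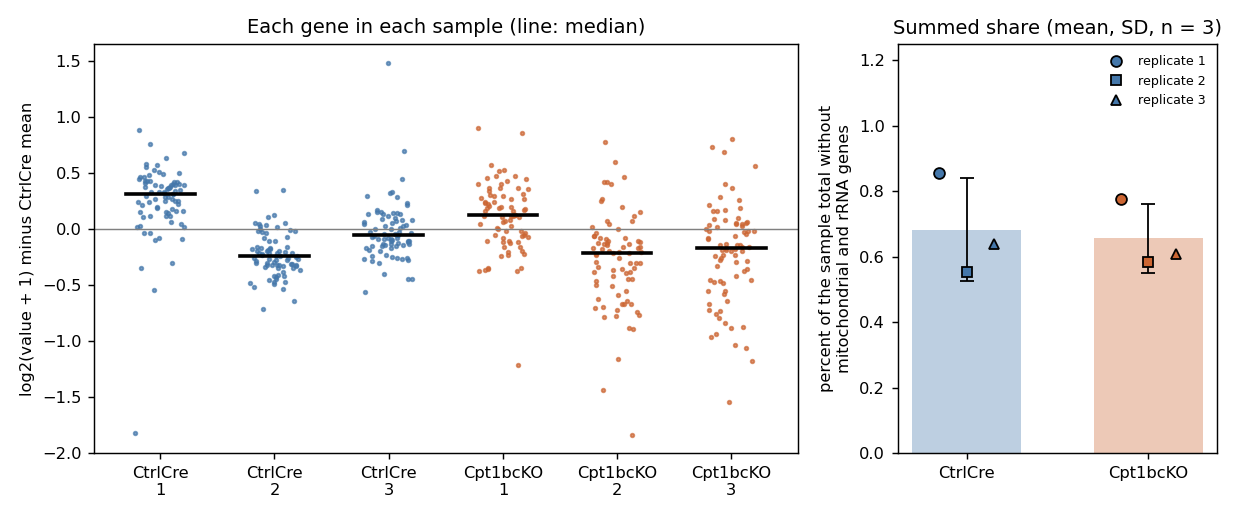
Left, log2(value + 1) of each of the 79 tested ribosomal protein genes in each sample as difference from its CtrlCre mean, with the median as line (0.32, −0.25 and −0.057 in CtrlCre, 0.12, −0.22 and −0.18 in Cpt1bcKO samples 1 to 3). Right, the summed share of all 82 genes in percent of the summed values outside rRNA and mitochondrial-encoded genes (bars are means, lines SD, n = 3), which overlaps between the groups and is highest in sample 1 of either group.

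Other genes of protein synthesis were counted from lists of the pathway. *Fau*, which encodes a ribosomal protein fused to a ubiquitin-like protein, had a log2FC of −0.23 (limma-adjusted P = 0.704). *Rack1*, a scaffold on the small subunit, had one of 0.073 (limma-adjusted P = 0.921). Of 37 translation factors, 10 were higher and 27 lower (median log2FC −0.14). No factor had an adjusted P value below 0.05 in limma, and 4 had an unadjusted one (13.9% of all genes did), *Eef1a1* and *Eif4a1* with higher and *Eif1ax* and *Eif4g2* with lower values. *Eef1a1*, a factor that delivers aminoacyl-tRNA and itself encoded by a TOP mRNA, had 515, 527 and 584 normalised counts in CtrlCre and 774, 786 and 774 in Cpt1bcKO CMs. These groups were well apart, and the log2FC was 0.52 (SE 0.132, limma-adjusted P = 0.0928). *Eef1a2* in the same list had higher counts, with 4505, 3414 and 3781 in CtrlCre and 3338, 3529 and 3833 in Cpt1bcKO CMs. Its groups overlapped (log2FC −0.12, limma-adjusted P = 0.769). *Eif4a1*, the helicase of cap-dependent initiation, had 573, 549 and 448 against 764, 700 and 672 normalised counts (log2FC 0.45, limma-adjusted P = 0.201). Among these factors, *Eif1ax* and *Eif4g2* had log2FC values of −0.39 and −0.34 (adjusted P values 0.286 and 0.273 in limma).

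Of 39 tested ribosome assembly genes, 23 were higher and 16 lower (median log2FC 0.040). Of these, 0 had an adjusted P value below 0.05 in limma and 3 an unadjusted one, all higher (6.66% of all genes were so in this direction). These were *Rrp12* (log2FC 0.66, adjusted P value 0.159), *Gnl3* (0.65, adjusted P value 0.252) and *Nob1* (0.52, adjusted P value 0.350), whose proteins serve in nuclear export of subunits, as a GTP-binding protein of the nucleolus and in the last cleavage of small subunit RNA. In the list of mTOR and TOP mRNA control, 15 of 25 tested genes were higher and 10 lower (median 0.053), and 1 passed the adjusted test, against 1.57% of all genes. *Mtor* itself rose from 380, 489 and 458 to 793, 1016 and 809 normalised counts. The groups did not overlap, and the log2FC was 0.98 (SE 0.161, limma-adjusted P = 0.0151). Among the 6 fits with a single sample left out, 3 did not call it, namely without CtrlCre sample 1 (adjusted P value 0.0542), CtrlCre sample 3 (0.0640) or Cpt1bcKO sample 2 (0.0991). With 1 prior variance for all genes it was not called either (limma-adjusted P = 0.112). In the same list *Rps6kb2*, an S6 kinase, and *Eif2ak3*, a stress kinase of initiation, had log2FC values of 0.63 and 0.66 (adjusted P values 0.282 and 0.277 in limma). *Larp1*, which binds TOP mRNAs, had 444, 439 and 452 against 434, 491 and 400 normalised counts (log2FC −0.016, SE 0.142). For comparison, the separate proteins of mitochondrial ribosomes had 33 of 76 tested genes higher and 43 lower, with a median log2FC of −0.045. Of these genes, 0 had an adjusted P value below 0.05 in limma (1.57% of all genes did) and 1 an unadjusted one (13.9% of all genes).

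**Figure D5:**
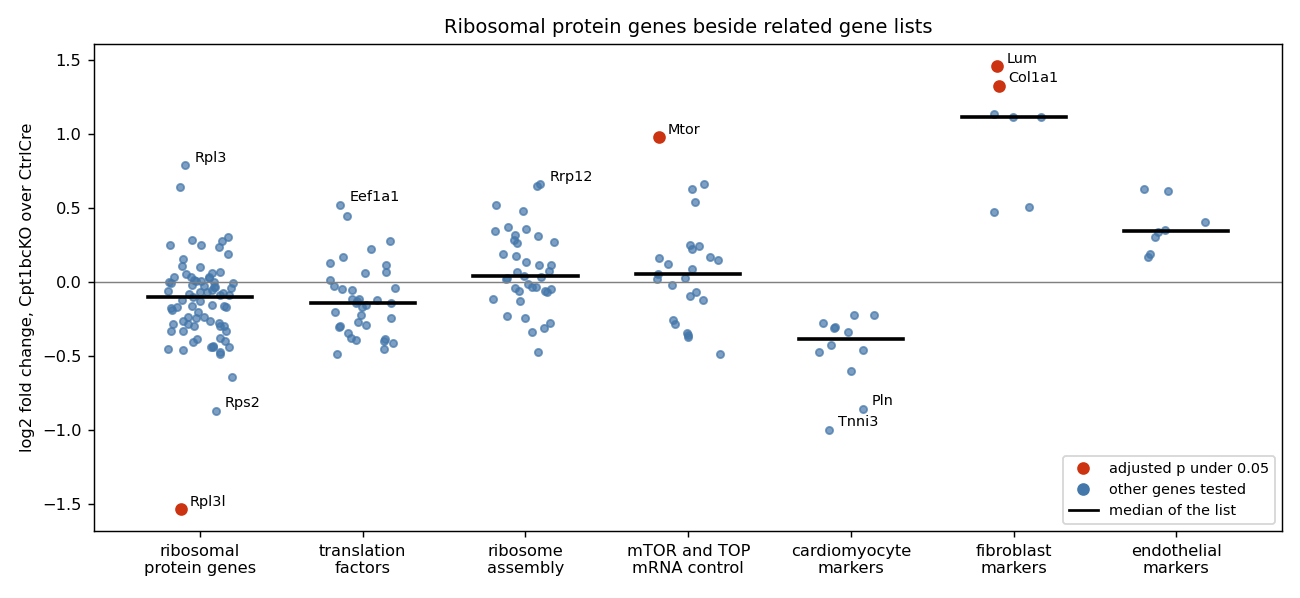
Log2 fold change (Cpt1bcKO over CtrlCre, log2(value + 1) scale, n = 3 samples per group) of each tested gene in the ribosomal protein genes, 3 lists of translation and ribosome genes and the markers of CMs, fibroblasts and endothelial cells, with list medians as lines and genes with an adjusted P value below 0.05 in red. Ribosomal protein genes and translation factors centre just below 0 (−0.097 and −0.14), *Rpl3l* and *Mtor* stand apart from their lists, and CM markers (12 of 12 lower) lie on the opposite side from fibroblast markers (7 of 7 higher) and endothelial markers (8 of 8 higher).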

How the data were processed

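RNA of isolated CMs was made into libraries with a stranded total RNA kit and sequenced. Per the submitters' processing notes and the study's methods, reads were trimmed with Trimmomatic 0.36, checked with FastQC 0.11.8, aligned to mm10 (GRCm38) with STAR 2.5.4b and counted on genes with featureCounts 1.6.0, excluding reads on several genes or regions. The annotation release and strand setting were not given in the sources used here. The deposited score values are these counts after the authors divided them by DESeq2 1.14.1 size factors and rounded them to whole numbers, so raw counts and exact depth are not recoverable. Columns with the authors' group means, fold changes and P values were not used.

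Members were taken by symbol and biotype. The members and gene lists were chosen with earlier results of these data known. Values were analysed as log2(value + 1) in 11364 genes with at least 10 in at least 3 samples, with limma 3.58.1 (lmFit, eBayes with trend) in R 4.3.3 and Benjamini–Hochberg adjustment over all of them, calling at 0.05. Fold changes of low genes are understated on this scale. Ratios were compared by an exact permutation test.

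Genes were named by rule, namely members with an adjusted P value below 0.05, pairs of paralogs, *Rplp0*, *Rps6*, *Rpl5* and *Rpl11*, the 6 largest changes in each direction among members with a mean of at least 50, the 3 highest by mean, and *Cpt1b*. Others were named after their values were seen. Some genes that the rule names are not reported here. All 82 members were found by identifier in GENCODE vM21 (GRCm38), 58 with the same start and end. Coordinates of genes are those of the deposited table. Exon length is the union of exons. Windows of 75 bases were taken from 1 transcript per gene and compared exactly with all annotated transcripts. Alternatives were other scalings (totals without mitochondrial-encoded and rRNA genes, trimmed means of M values, median of ratios), filters, pseudocounts of 0.5 and 5, 1 prior variance for all genes, a replicate block, GC and length corrections (loess span 0.3), and leaving out each sample. Sequence features and figures were made in Python 3.11.15 (matplotlib 3.10.9, pandas 2.3.3, numpy 2.4.6).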

Additional observations from a re-analysis of the deposited data

How the results depend on the processing

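The call of *Rpl3l*, the median of the members and the ratio of *Rpl3l* to *Rpl3* are limited by 3 samples per group, and by unknown depth. With 1 prior variance for all genes, 0 members had an adjusted and 3 an unadjusted P value below 0.05 in limma, against 1 and 5 in the fit reported. The share of all genes called in that fit is not reported here, so these lower counts cannot be set against it. The study's methods name littermates as controls throughout, but tie no replicate number to a litter. The replicate numbers were not taken as pairs, since deviations of same-numbered samples correlated at 0.376, 0.255 and 0.0684 across all genes, the last below a limit of 0.1. Over the members alone they correlated at 0.322, 0.220 and 0.168, above every other pair (at most 0.079). With the replicate block, 4 members had an adjusted P value below 0.05 in limma (3 lower, among them *Rps2* and *Rpl3l*, and *Rpl3* higher, against 5.31% of all genes) and 17 an unadjusted one (20.8% of all genes). *Rps2* and *Rpl3* then had limma-adjusted P values of 0.00182 and 0.0198, and *Eef1a1*, *Eif4a1* and *Rrp12* were, among the alternatives run, called only with this block (0.0233, 0.0470 and 0.0464). Sample 3 of either group correlated better with sample 2 of the other (0.119 and 0.147) than with its own number across all genes. Without sample 1 of both groups, chosen after seeing the data, the counts were 3 and 13 (2.10% and 17.7% of all genes). In fits without 1 sample each they ranged from 0 to 2 and from 2 to 18, the latter without Cpt1bcKO sample 1. The cause was not tested. In these fits the median of the members ranged from −0.24 to 0.033, the share of the members in the total from −0.092 to 0.060 percentage points between groups, and the log2 ratio difference from −2.48 to −2.18.

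Among named members, signs changed for 11 whose reported log2 fold changes lay between −0.24 and 0.16. Scaled to totals without mitochondrial-encoded and rRNA genes, log2 fold changes were 0.075 for *Rpl22*, 0.032 for *Rpl4*, 0.023 for *Rplp0*, 0.089 for *Rps27l* and 0.044 for *Rps6*. With trimmed means of M values they were −0.0097 for *Rpl11* and −0.018 for *Rpl36a*, and with the median of ratios −0.00099 and −0.0094. *Rpl11* had −0.026 with the GC correction and −0.0074 with the length correction. Without sample 1 of both groups, *Rpl36a* had −0.020, *Rplp0* 0.14, *Rps27l* 0.0016 and *Rps6* 0.14. Leaving out 1 sample each gave −0.077 to 0.13 for *Rpl11*, −0.051 to 0.35 for *Rpl19*, −0.27 to 0.12 for *Rpl22*, −0.31 to 0.011 for *Rpl22l1*, −0.11 to 0.074 for *Rpl36a*, −0.54 to 0.084 for *Rpl39*, −0.25 to 0.097 for *Rpl4*, −0.37 to 0.20 for *Rplp0*, −0.23 to 0.30 for *Rps27l*, −0.15 to 0.052 for *Rps6* and −0.035 to 0.22 for *Rpsa*. *Rpl3l* kept its direction in all 18 alternatives, where limma-adjusted P lay between 0.00037 and 0.108.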

Other observations

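Rows of snoRNA genes that lie inside ribosomal protein genes were summed as a readout outside the comparisons above. There were 33 such rows in 21 host genes. Their summed normalised counts were 177, 194 and 185 in CtrlCre samples 1 to 3 and 235, 393 and 422 in Cpt1bcKO samples 1 to 3, so the groups did not overlap. In percent of all values outside rRNA and mitochondrial-encoded genes this was 0.00532% ± 0.000308 in CtrlCre and 0.0108% ± 0.0029 in Cpt1bcKO CMs (SD, n = 3 each). In percent of the values of all genes, whose sum was highest in Cpt1bcKO sample 3, the groups did overlap, with 0.00109%, 0.00130% and 0.00135% in CtrlCre samples 1 to 3 and 0.00175%, 0.00198% and 0.00133% in Cpt1bcKO samples 1 to 3. The rows with the highest mean were *Snord15b* and *Snord15a*, both in *Rps3*, with 25, 25 and 28 against 28, 51 and 52 and with 17, 14 and 39 against 20, 37 and 54 normalised counts. The host *Rps3* had a log2FC of −0.097 (SE 0.183). SnoRNAs are short, and how far such a library covers them is not known. Of the 33 rows, 8 passed the filter, and all 8 were higher under the scaling reported (median log2FC 0.73). Rows could pass the filter on their Cpt1bcKO values alone. *Gm23344* did so with 10, 6 and 3 against 12, 23 and 27 normalised counts, and *Gm22879* with 12, 7 and 7 against 14, 11 and 13. The filter thus favours higher rows, so the direction and median of the 8 cannot show a rise. Among these 8, 2 had an unadjusted P value below 0.05 in limma (13.9% of all genes did) and 0 an adjusted one (1.57% of all genes). The sum was chosen after the table had been seen, and it was not tested.

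The table also holds 22 rows of annotated ribosomal protein pseudogenes or copies outside the members, of which 4 passed the filter. The highest, *Rpl14-ps1*, had 103, 45 and 60 normalised counts in CtrlCre and 112, 24 and 49 in Cpt1bcKO samples.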
